A study of Mus musculus with 9 samples.

Results

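The cells described here were intestinal macrophages that held much mRNA of complement C1q and almost none of the Cd163 programme, 2406 of the 31759 barcodes kept from 9 mouse single-cell RNA libraries. A barcode was kept with at most 15% mitochondrial UMIs (unique molecular identifiers, each standing for 1 counted RNA molecule) and at least 200 genes. It entered the group with at least 5 UMIs of C1qa, C1qb and C1qc together, at least 30 C1q UMIs per 10000, at most 1 UMI of Cd163, Lyve1 and Folr2 together and fewer than 10 UMIs of Hbb-bs. All libraries came from CD11b+ lamina propria cells of male wild-type C57BL/6 mice labelled 7 to 8 weeks old, save that 1 library is labelled Nlrc4 deficient. There were 2 libraries from the colon of specific pathogen-free (SPF) mice, 2 from germ-free (GF) colon, and 2 from the small intestine of mice labelled only as normal. Single libraries came from the colon of mice given dextran sodium sulfate (DSS), from DSS-treated colon labelled Nlrc4 deficient, and from the colon of SPF mice given pan-antibiotics in drinking water. The stated protocol for DSS is 2.5%, or other doses that are not listed per sample, for 7 days and then plain water. The antibiotics were ampicillin, vancomycin, neomycin sulfate and metronidazole, given for a week or longer. The labels do not say whether 2 libraries of a group came from separate mice, so p-values measure only the spread between libraries.

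C1q is the recognition molecule of the classical complement pathway and is made by tissue macrophages rather than by the liver, which makes most other complement proteins. Macrophages of the gut wall sit under an epithelium in contact with bacteria, are replaced largely from blood monocytes, and take up dead cells while releasing little inflammatory cytokine at rest. Monocytes that enter the mucosa lose Ly6c2 and Ccr2 and gain C1q, Cx3cr1, Mertk and MHC class II as they mature. A second population that carries Cd163, Lyve1 and Folr2 lies deeper, along vessels, nerves and muscle, and was kept out of the group by the rule.

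The 3 C1q genes that chose the cells lie side by side on chromosome 4 (GRCm38, minus strand): C1qb at chr4:136880129-136886187, C1qc at chr4:136889804-136893065 and C1qa at chr4:136895917-136898803. In the summed counts of the cells, C1qa stood between 1982 and 4210.1 CPM, C1qb between 1624 and 2367 and C1qc between 1231 and 2089. CPM here is the summed UMIs of a gene over the cells of a library, divided by all their UMIs and scaled to 1000000, which is not divided by gene length, so it serves to compare libraries and not genes. The median C1q level per cell ran from 52.2 to 83.5 UMIs per 10000 across libraries.

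The cells were checked against markers of 16 cell classes. The summed level of 10 resident macrophage markers was 7840 to 22348 CPM in the cells and 153 to 1155 CPM in the other kept barcodes, with all 10 detected in each library. Of those genes, 2 are C1q genes that the rule used. The other 8 summed to 4627 to 16653 CPM in the cells and 140.1 to 1083 CPM in the other barcodes, and the 7 without Apoe to 1479 to 4884 and 69.8 to 507 CPM. Apoe, Mmp13 and Ms4a7 are markers named for the group with earlier results of these data known, so these sums are a description. The remaining Adgre1, Csf1r, Mertk, Cd68 and Fcgr1 were each higher in the cells than in the other barcodes in every library. A set of 8 monocyte markers summed to 253 to 2788 CPM in the cells and 626 to 3803 CPM in the other barcodes. The cells were lower in 9 of 9 libraries, but by little in the DSS library (2788 against 3346 CPM). At least 3 UMIs of these markers were found in 59.1% of the cells in SPF library 1. The share was 63.8% in the DSS library, 77.3% in the library labelled Nlrc4 deficient and 19.5% to 34.2% in the others. T cell markers reached at most 53.1 CPM, B cell markers 174 CPM and fibroblast markers 204 CPM, in each case below the other barcodes in 9 of 9 libraries. Dendritic cell markers reached 409 CPM (GF library 2), also below the other barcodes in 9 of 9 libraries. At least 3 UMIs of them were found in 34.2% of the cells in GF library 2. The share was 21.0% in the library labelled Nlrc4 deficient and 6.14% to 13.8% in the others. Plasma cell markers summed to 249.96 to 20545 CPM in the cells (the most in small intestine library 1) and to 2440 to 163569 CPM in the other barcodes. Leaving monocyte and dendritic cell markers aside, 1907 of the 2406 cells held at least 3 UMIs of another class. Without the plasma cell list 469 did. Neutrophil markers stood at 2750 CPM in the DSS library and at 54.8 CPM in the lowest. Of the 14 classes besides macrophages, 9 were below the other barcodes in all 9 libraries and 5 were not. Among these, 4 endothelial markers summed to 19.8 to 94.7 CPM in the cells and were above the other barcodes in 5 of 9 libraries. No cell barcode of the group was shared between libraries, and Scrublet, a doublet caller, marked 8 of the 2406 cells. It marked fewer than 0.5% of kept barcodes in 8 of 9 libraries, so doublets were not removed by it. Nlrc4 itself stood at 35.1 CPM in the library labelled Nlrc4 deficient, the highest of the 9 libraries (lowest 12.9, DSS). The reads are 3' tags, which may lie outside the deleted part, so the level checks nothing about the label.

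The number of cells varied as much within a group as between groups. SPF colon library 1 held 330 of 2615 kept barcodes (12.6%, 95% exact binomial interval 11.4 to 14.0%) and library 2 held 94 of 2431 (3.87%, 3.14 to 4.71%). GF colon library 1 held 166 of 1450 (11.4%) and library 2 held 79 of 2846 (2.78%). In the small intestine, library 1 held 277 of 3654 (7.58%) and library 2 held 604 of 5470 (11.04%). Group means were 8.24% ± 6.19 (SD, n = 2) for SPF colon, 7.11% ± 6.13 for GF colon and 9.31% ± 2.45 for small intestine. The exact two-sided permutation test gave p = 0.667 for GF against SPF colon and p = 1 for small intestine against SPF colon, where 2 libraries against 2 cannot go below 0.333. The shares in the single libraries were 8.10% after DSS, 6.32% with DSS in the library labelled Nlrc4 deficient and 3.95% after antibiotics, each inside the range of the pair of SPF libraries. These intervals and those below cover counting error only.

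**Figure D1:**
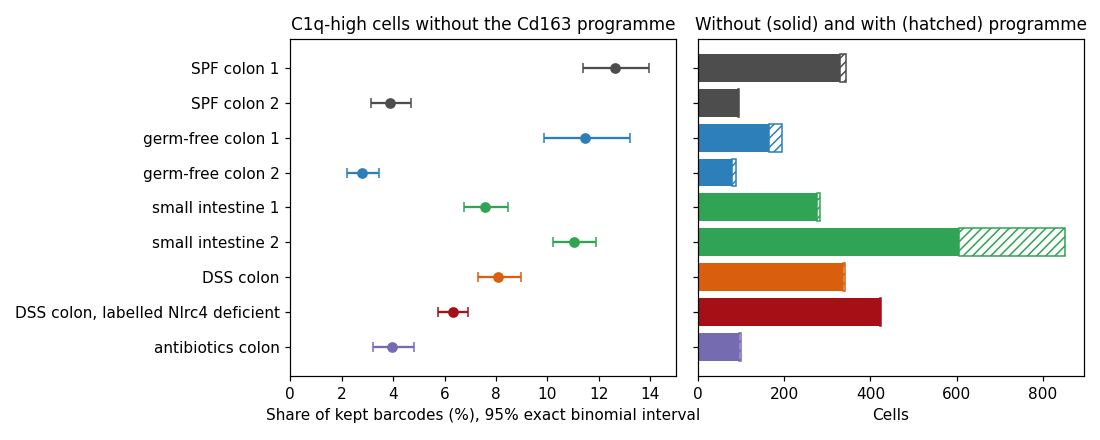
Left, share of kept barcodes (%) that were C1q-high cells without the Cd163 programme in each library, with 95% exact binomial intervals. Right, the number of C1q-high cells without (solid) and with (hatched) the programme. The SPF libraries lie at 12.6% and 3.87%, and small intestine library 2 holds 247 of the 315 programme cells.

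Apoe, Ms4a7 and Mmp13, the other marker genes named for the group, behaved differently from each other across libraries. Apoe (chr7:19696109-19699188), whose protein carries lipid out of cells, stood at 7800.2 and 8157 CPM in SPF colon, 13482 and 10945 in GF colon, 9796 and 7874 in small intestine, 8864 after antibiotics, 4272 after DSS and 3141 in the library labelled Nlrc4 deficient. The GF libraries were the highest and both DSS libraries the lowest. Apoe UMIs were found in 89.0% to 98.9% of the cells of a library, but also in 52.4% to 70.7% of barcodes with at least 3 UMIs of the B cell gene Ms4a1 and no C1q, so its share of cells carries a background of free RNA. Thinned to 1000 UMIs per barcode, the share was 69.6% to 97.5% of the cells and 28.0% to 44.0% of the Ms4a1 barcodes.

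Ms4a7 (chr19:11321039-11336146) encodes a membrane-spanning protein of the Ms4a family found in mature macrophages. Its level was 374 and 764 CPM in SPF colon, 630.3 and 435 in GF colon and 537 and 333 in small intestine, so that these 3 groups overlapped. It stood at 486 CPM after antibiotics, 332 after DSS and 193 in the library labelled Nlrc4 deficient, the lowest of all. A UMI of Ms4a7 was found in 56.4% to 76.9% of the cells and in at most 2.64% of the Ms4a1 barcodes.

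Mmp13 (chr9:7272514-7283331), a collagenase, was the most uneven of the 3. It stood at 209 CPM in SPF library 1 and at 2345 in library 2, which enclosed the levels of every other library but DSS: 1067 and 678 in GF colon, 1036 and 647 in small intestine, 1634 after antibiotics and 294 in the library labelled Nlrc4 deficient. The DSS library held the least, 166 CPM. Mmp13 UMIs were found in 23.9% and 50% of the SPF cells and in 12.5% of the DSS cells, against at most 3.70% of the Ms4a1 barcodes. They were also concentrated: the 10% of cells with the most Mmp13 held 57.4% of its UMIs in the most even library (small intestine 1) and 97.5% in the DSS library, where for Apoe the same share was 34.2% to 58.3%.

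Other genes of resident macrophages were present throughout. Adgre1, which encodes the antigen F4/80, ranged from 139 CPM (DSS) to 449 (SPF library 2), and the receptor Csf1r from 425 (DSS) to 1075 (small intestine 1). Cx3cr1, the fractalkine receptor, was 407 and 163 CPM in SPF colon, 487 and 134 in GF colon, 198 after DSS and 26.6 in the library labelled Nlrc4 deficient. Mertk, a receptor for dying cells, was 91.6 and 97.0 CPM in small intestine and 6.36 in the library labelled Nlrc4 deficient. Monocyte genes separated the libraries further. Ly6c2 was 292 CPM in SPF library 1 and 5.83 in library 2, 562 after DSS, 221 in the library labelled Nlrc4 deficient and at most 26.2 in the others. Plac8, another gene of young monocytes, was 564 and 52.5 CPM in the SPF libraries and 1203 and 1574 in the DSS libraries. SPF library 1 thus resembled the DSS libraries in these genes more than SPF library 2 did, and each comparison with SPF colon below rests on both.

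**Figure D2:**
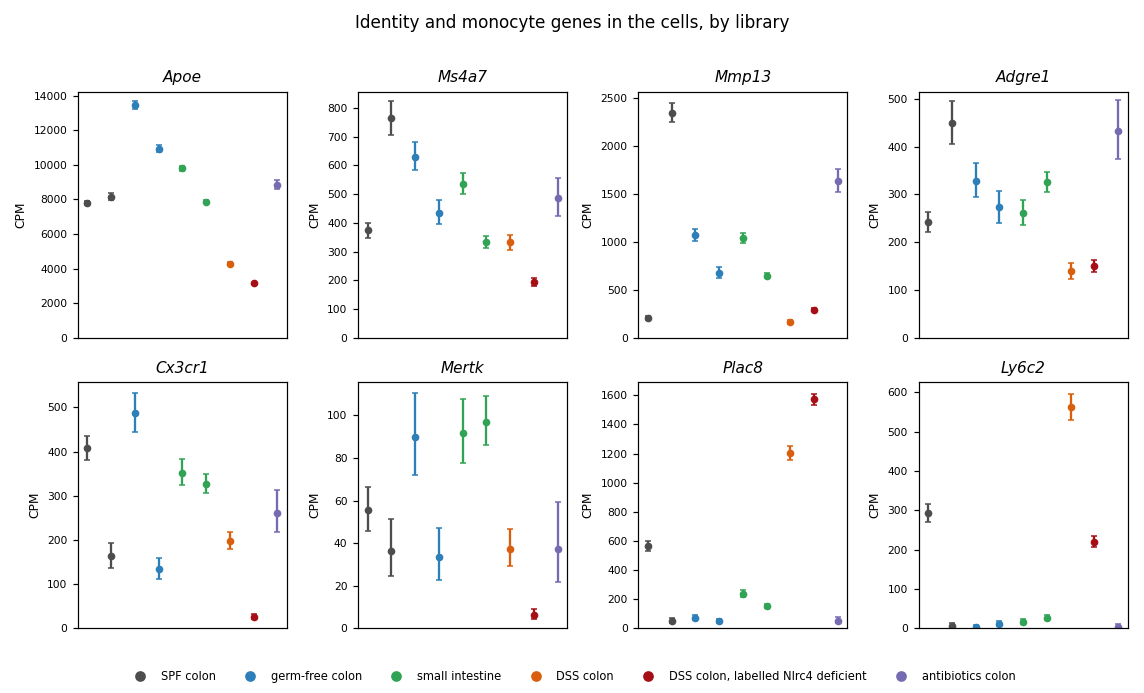
CPM of 8 genes in the summed C1q-high cells of each library, 1 point per library with its 95% Poisson interval, from left to right in the order of the legend. Apoe is highest in GF colon (13482 and 10945 CPM), while Mmp13, Plac8 and Ly6c2 differ between the pair of SPF colon libraries.

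The cells were not uniform, and the level of other macrophage and monocyte genes differed with the C1q level of the cells. C1q chose the cells, so these values are a description. Cells with 30 to 60, 60 to 120 and over 120 C1q UMIs per 10000 held, over all libraries pooled, 3893, 9261 and 16527 CPM of Apoe. Apoe was higher in the middle class than in the lowest in 9 of 9 libraries, and higher over 120 than in the lowest in 7 of the 7 libraries with at least 20 such cells. The class over 120 also had the lowest median UMIs per cell in every library. In SPF library 1 it was 3463 against 4799.5 at 30 to 60, and in SPF library 2 974 against 11109. The part of depth in the values by C1q class was not tested. Ms4a7 stood at 234, 472 and 878 CPM, Cx3cr1 at 133, 306 and 580, and the tetraspanin Cd81 at 160, 401 and 687, each also higher in the middle than in the lowest class in 9 of 9 libraries. H2-Ab1, a class II chain, moved less, from 6726 to 8038 and 9029 CPM. Legumain (Lgmn), a lysosomal protease, stood at 1745, 2679 and 3707 CPM, higher in the middle class in 8 of 9 libraries. In the other direction, Plac8 stood at 1117, 297 and 107 CPM and was lower in the middle class in 9 of 9 libraries. Ccr2 stood at 374, 260.3 and 143 CPM and was higher in the middle than in the lowest class in 1 of 9 libraries. Ly6c2 (259, 91.7 and 26.7 CPM) and Il1b (5502, 3723 and 1912 CPM) were each higher in the middle class in 3 of 9 libraries, so the pooled order did not hold in all. Mmp13 followed no such order, with 431, 836 and 642 CPM. Ccl8, a monocyte-attracting chemokine, was 13.9, 65.8 and 317 CPM, higher in the middle than in the lowest class in 9 of 9 libraries. Just inside the limit, 197 cells at 30 to 35 C1q UMIs per 10000 held 2623 CPM of Apoe and 367 of Ly6c2, and just outside it 198 barcodes at 25 to 30 held 2810 and 382. Cells with 1 programme UMI numbered 131 and barcodes with 2 numbered 70, with 373 and 379.6 CPM of Ms4a7 but 170 and 6.55 CPM of Ly6c2. With 5 C1q UMIs there were 61 cells inside, and 44 barcodes with 4 lay outside. Here the barcodes outside held more of the marker genes than the cells inside. Apoe was 6012 against 3450 CPM, Ms4a7 529 against 329 and Mmp13 584 against 181, while Ly6c2 was lower, 27.8 against 148.

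**Figure D3:**
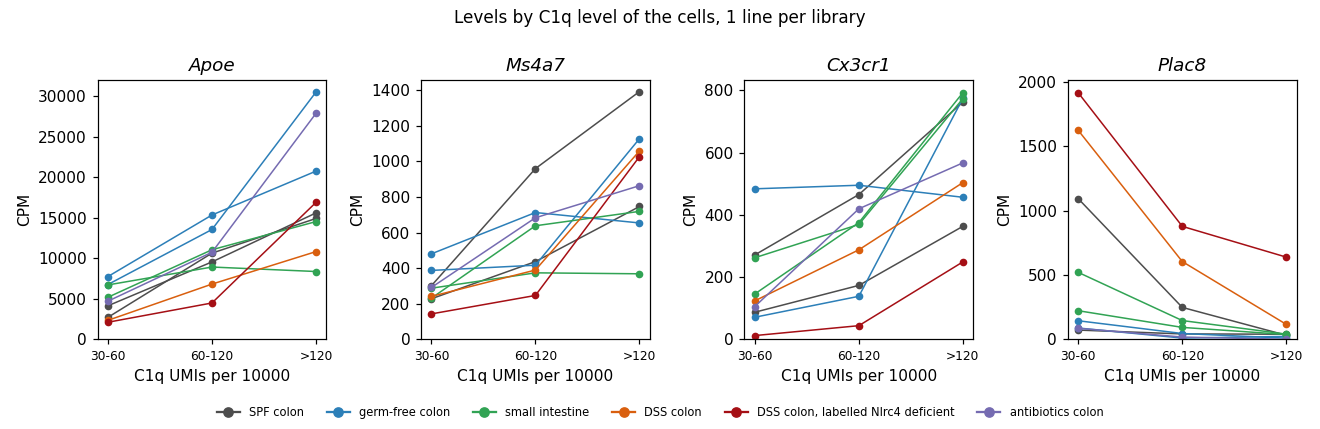
CPM of Apoe, Ms4a7, Cx3cr1 and Plac8 in cells grouped by C1q UMIs per 10000, 1 line per library, coloured by group; the points over 120 rest on 19 and 8 cells in the GF libraries and on 22 or more elsewhere. From 30 to 60 to 60 to 120, Apoe, Ms4a7 and Cx3cr1 go up and Plac8 goes down in each of the 9 libraries. Cells over 120 have the lowest median UMIs per cell in every library.

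Beside the C1q-high cells that do carry Cd163, Lyve1 and Folr2, the cells without them held less Mrc1 and Gas6 and more Itgax and Mmp12. Apoe had no common direction. Since the rule divides the 2 kinds, these are values with no test, over the 4 libraries with at least 10 programme cells (14 in SPF library 1, 28 and 10 in GF colon and 247 in small intestine 2), and the genes named here were chosen after their values were seen. In GF library 1, Apoe stood at 13482 CPM in the cells and at 12175 in programme cells, and in small intestine 2 at 7874 and 11454. The mannose receptor Mrc1 was 443 against 1587 CPM in GF 1 and 463 against 1286 in small intestine 2. Gas6, a bridge between dying cells and Mertk or Axl, was 40.9 against 381 and 42.4 against 193 CPM. Maf, Cd36, Stab1 and Pf4 were lower than in programme cells in 4 of 4 libraries too. Higher than in programme cells in 4 of 4 libraries were the integrin Itgax, encoding CD11c (284 against 43.1 CPM in GF 1, 193 against 40.7 in small intestine 2), and the elastase Mmp12 (248 against 24.6 and 284 against 45.2). Mmp13 (1067 against 166 and 647 against 371) and Il1b (2291 against 375 and 2249 against 1236) were also higher in 4 of 4. The cells without the programme made up 71.0% of C1q-high cells in small intestine 2, 85.6% and 88.8% in the GF libraries and 95.9% to 99.5% in the others.

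Germ-free mice lack all bacteria, and the comparison of GF with SPF colon asks what the cells express without them. In GF colon the cells held more Apoe and less of several interferon-stimulated and monocyte genes, but no gene passed the test. Of 8235 genes tested with edgeR's quasi-likelihood test, 0 (0%) had an adjusted p of 0.05 or less, 346 (4.20%) had an unadjusted p under 0.05, and DESeq2 called 5 (0.0607%), all lower, among them Thbs1, Ly6a and Ccl8 below. Leaving out SPF library 2 gave 4 genes, leaving out GF library 2 gave 1, and leaving out either of the others gave 0. With 2 libraries a group the test had little power in simulated data. These kept the library sizes and mean levels of the data, with a spread set alike for all genes and not estimated from the libraries. In them the test recovered 39 of 96 genes changed 4-fold and 1 of 100 changed 2-fold. Libraries of the 2 groups did not overlap for 31.5% of all genes tested (10.1% higher and 21.4% lower in GF), the background for the counts below. In bulk sums such as these, fewer cells of a state and less RNA per cell cannot be told apart.

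The type I interferon list, genes switched on by interferon as a defence against viruses, leaned one way. None of its 20 tested genes passed the test, 9 were lower in both GF libraries than in both SPF libraries and 0 were higher, with a median log2 difference of -0.58 against 0.00 over all genes. Oas3, an RNA sensor, was 4.99 and 5.21 CPM in GF against 29.1 and 23.3 in SPF colon (log2 difference -2.28 ± 0.42, SE), and Usp18, which dampens interferon signals, 4.99 and 4.17 against 27.3 and 24.5. The edgeR adjusted p was 0.498 for both. The antiviral Mx1 was 1.99 and 8.33 against 24.0 and 32.6 CPM. These 3 genes were low in all libraries.

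Of 16 chemokines, the attractants of leukocytes, 4 were lower and 2 higher without overlap, near the shares over all genes. Ccl8 was 16.0 and 21.9 CPM in GF and 79.0 and 204 in SPF colon (log2 difference -2.80 ± 0.54; edgeR adjusted p = 0.498). Cxcl9, a T cell attractant induced by interferon gamma, was 65.8 and 89.6 against 377 and 307 CPM. Its relative Cxcl10 stood the other way, at 1019 and 914 against 470.4 and 528 CPM (edgeR adjusted p = 0.74). Ccl5 was likewise 570.4 and 1447 against 151 and 541 CPM.

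Of 13 monocyte genes tested, 5 were lower in GF colon without overlap and 0 higher (median log2 difference -1.05). The 8 monocyte markers of the class check summed to 301 and 253 CPM in GF and to 1509 and 305 CPM in SPF colon, a gap carried by SPF library 1. The part of these markers in the other differences was not tested. Thbs1, which encodes the adhesive glycoprotein thrombospondin 1, had the smallest p: 205 and 139.6 CPM in GF against 581 and 602 in SPF colon (log2 difference -1.69 ± 0.28; edgeR adjusted p = 0.498). Ly6a was 23.9 and 26.0 against 311 and 67.6 CPM. The Ly6c2 difference rested on 1 library: GF colon held 2.99 and 10.4 CPM, inside which SPF library 2 (5.83) also lay, and without SPF library 1 the log2 difference turned from -4.41 to 0.23. Apoe had a log2 difference of 0.70 ± 0.26 (edgeR adjusted p = 0.997). Within a C1q class GF also stood above SPF colon, both in cells with 30 to 60 C1q UMIs per 10000 (7735 and 6755 against 4131 and 2705 CPM) and in those with 60 to 120 (15331 and 13542 against 9542 and 10626). Mmp13 (log2 difference -0.49 ± 0.79) and Ms4a7 (-0.02 ± 0.39) overlapped between the groups, and without SPF library 2 these values turned to 2.18 and 0.63.

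Other lists held single genes. Fcgr1, a high-affinity receptor for IgG, was 51.9 and 21.9 CPM in GF against 124 and 72.3 in SPF colon, and 3 of 7 Fc receptors were lower without overlap. Saa3, a serum amyloid protein made in inflammation, was 5.98 and 24.0 against 60.2 and 36.1 CPM, while Il23a, a subunit of interleukin 23, was 27.9 and 46.9 against 17.9 and 2.33. Of 10 cell cycle genes, 7 were lower without overlap, with Top2a at 4.99 and 19.8 against 31.5 and 49.0 CPM. Of 19 cathepsins and lysosomal genes, 9 were lower and 1 higher, at a median log2 difference of -0.17, led by the protease Ctsc (784 and 606 against 1012 and 1096 CPM). Resident identity genes were higher in 2 and lower in 1 of 17 without overlap. MHC class II genes were higher in 2 and lower in 1 of 13, and the IL-10 and TGF-beta pathway in 2 and 2 of 15. Over all genes 10.1% were higher and 21.4% lower, so counts this small do not show these lists unchanged.

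The comparison of small intestine with SPF colon asks how the same kind of cell differs between gut segments, with the same SPF libraries as reference. Cells of the small intestine held more of the gelatinase Mmp9 and of Adamdec1 and less of S100a6, S100a4 and Slpi. By edgeR 0 of 8235 genes (0%) passed the test, 668 (8.11%) had an unadjusted p under 0.05, and DESeq2 called 46 (0.559%, 11 higher and 35 lower). Without small intestine library 2 edgeR called 44, without library 1 it called 3, without SPF library 2 also 3, and without SPF library 1 it called 0. Libraries of the 2 groups did not overlap for 40.6% of all genes tested, 22.3% higher and 18.4% lower. Plasma cell markers summed to 20545 and 1611 CPM in the small intestinal cells and to 1237 and 1343 CPM in SPF colon, and their part in the differences was not tested.

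Among matrix enzymes and their inhibitors 2 of 10 tested were higher and 2 lower without overlap, near the share over all genes. Mmp9 (chr2:164940780-164955850) was 841 and 326 CPM in small intestine against 31.5 and 9.33 in SPF colon and at most 35.6 in the other colon libraries (log2 difference 4.68 ± 0.64; edgeR adjusted p = 0.12). A Mmp9 UMI was found in 55.2% and 31.6% of the small intestinal cells, in 0.709% to 7.58% of the colon cells, and in 3.70% and 0.857% of the Ms4a1 barcodes of the same small intestine libraries. It was present at each C1q level, with 619 and 222 CPM in cells with 30 to 60 C1q UMIs per 10000 and 854 and 404 at 60 to 120. Adamdec1, a secreted protease typical of gut, was 659 and 216 against 101 and 93.3 CPM (log2 difference 2.13 ± 0.45; edgeR adjusted p = 0.204). Timp2, an inhibitor of metalloproteinases, was 8.67 and 36.2 against 90.7 and 111 CPM, while Mmp13 overlapped. All 3 (Mmp9, Adamdec1, Timp2) were called by DESeq2.

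Monocyte genes were lower in 9 of 13 and higher in 0 of 13 without overlap, with a median log2 difference of -1.91 against -0.01 over all genes. S100a6, a calcium-binding protein, was 64.4 and 105 CPM in small intestine and 573 and 369.6 in SPF colon (log2 difference -2.49 ± 0.37; edgeR adjusted p = 0.12). Its relative S100a4 was 5.57 and 25.5 against 323 and 220.4 CPM (log2 difference -4.06 ± 0.65; edgeR adjusted p = 0.12). Both were also lower in small intestine than in each of the 7 colon libraries, whose lowest values were 369.6 and 115 CPM. Ly6a was 33.4 and 19.0 against 311 and 67.6 CPM.

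Inflammatory mediators were lower in 9 of 17 and higher in 0 of 17 without overlap (median log2 difference -1.01). Slpi, a secreted inhibitor of neutrophil proteases, was 8.05 and 2.76 CPM against 39.9 and 71.1 (log2 difference -3.47 ± 0.52; edgeR adjusted p = 0.12). Saa3 was 19.8 and 5.52 against 60.2 and 36.1 CPM, and Il1b, at far higher levels, 2092 and 2249 against 3009 and 5352. Interferon-stimulated genes were lower in 9 of 20 and higher in 0 of 20 (median -0.77). Among the lower was Usp18, at 11.8 and 8.28 against 27.3 and 24.5 CPM. Among 16 chemokines 6 were lower and 1 higher without overlap. Ccl8 was 27.9 and 13.8 against 79.0 and 204 CPM (log2 difference -2.83 ± 0.50; edgeR adjusted p = 0.142). Ccl24, an eosinophil attractant, stood at 141 CPM in library 1 and 7.94 in library 2 against 11.7 and 3.50, a difference carried by 1 library.

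Of 17 genes for uptake of dead cells, 5 were higher and 4 lower without overlap, near the shares over all genes (median log2 difference 0.02). Timd4, a phosphatidylserine receptor of long-lived macrophages, was 68.1 and 19.3 CPM in small intestine against 3.76 and 9.33 (edgeR adjusted p = 0.318), the scavenger receptor Stab1 212 and 248 against 129.7 and 126, and Mertk 91.6 and 97.0 against 55.5 and 36.1. Iron genes were higher in 7 and lower in 1 of 13, with the transferrin receptor Tfrc at 65.0 and 77.3 against 31.02 and 37.3 CPM and the iron exporter Slc40a1 at 35.9 and 8.63 against 4.23 and 5.83. Glycolysis genes were lower in 10 and higher in 2 of 16, for example enolase (Eno1) at 59.4 and 45.9 against 121 and 119 CPM. The transcription factor Cebpb was 1475 and 2224 against 1132 and 810.3 CPM. Immediate-early and heat shock genes, which also respond to tissue dissociation, were higher in 8 and lower in 2 of 20. The bacterial sensor Tlr2 was 37.8 and 157 against 336 and 232 CPM, the inhibitory Fc receptor Fcgr2b 162 and 189.8 against 384 and 417, and the costimulator Cd80 119 and 88.3 against 53.6 and 45.5. Il10 (1084 and 876 CPM) lay inside the SPF range of 607 to 2594.

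**Figure D4:**
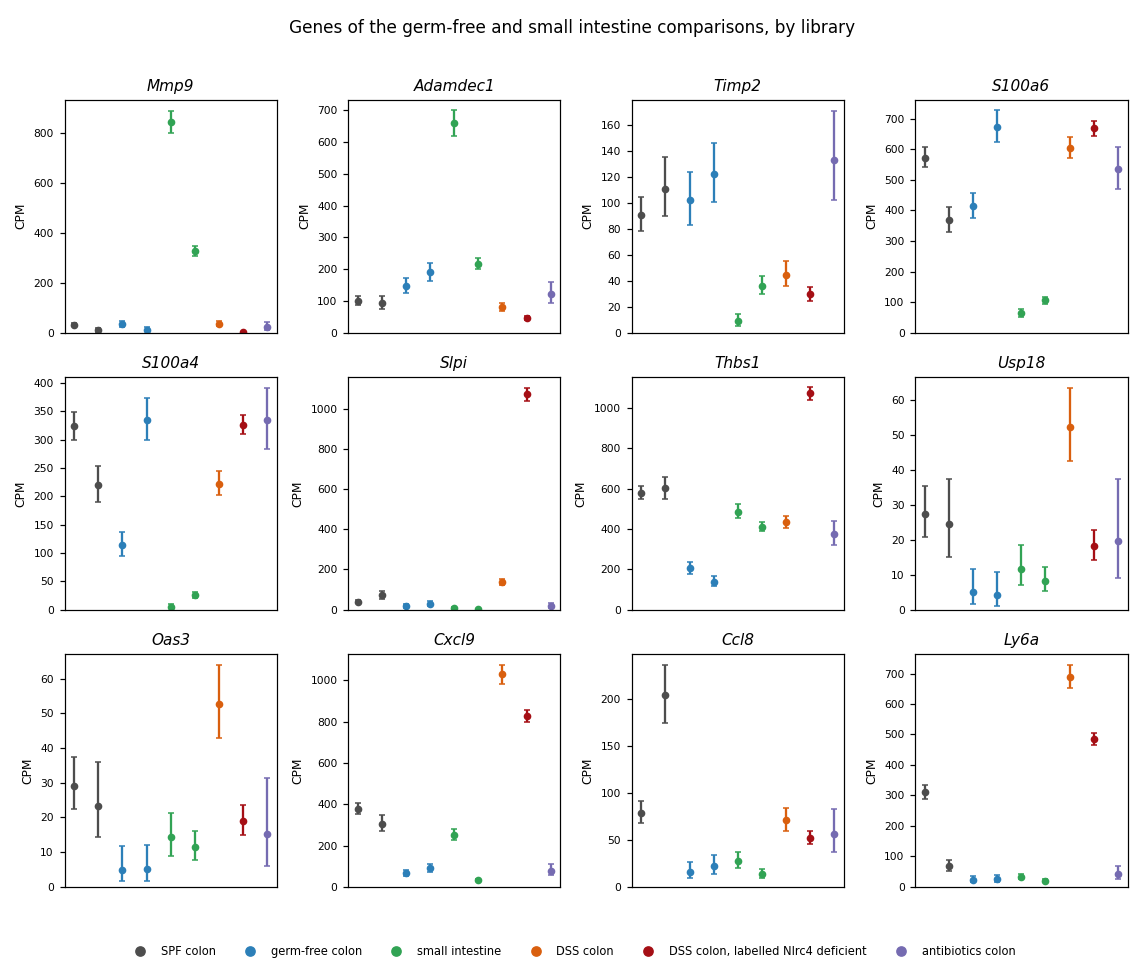
CPM in the summed C1q-high cells of each library for 12 genes of the germ-free and small intestine comparisons, 1 point per library with its 95% Poisson interval, from left to right in the order of the legend. Mmp9 stands at 841 and 326 CPM in small intestine and at 35.6 or less in colon, and Thbs1 at 205 and 139.6 CPM in GF colon and above 323 elsewhere. No gene shown passed edgeR's test.

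DSS injures the colon epithelium and draws in monocytes and neutrophils, and the DSS library asks what the C1q-high cells look like in that setting. With 1 library there is no test. A gene was counted as higher or lower when it differed at least 2-fold from the mean of the SPF libraries (5 CPM added to each), its 95% Poisson interval lay clear of those of both SPF libraries, and it reached 50 CPM in the higher group. By this rule 130 of 3297 genes (3.94%) were higher and 75 (2.27%) lower after DSS, 6.22% together. SPF library 2 against library 1, by the same fold and interval, differed in 218 of 3174 genes (6.87%). In the like comparison of 1 library with 1, the DSS library differed from SPF library 1 in 107 genes and from library 2 in 553. Treatment and library cannot be told apart in these values.

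After DSS the cells held more mRNA of serum amyloid, of interferon-stimulated genes and of monocyte genes, and less Il10. Inflammatory mediators were higher in 8 of 16 measured genes and lower in 1, with a median log2 difference of 1.06 against 0.14 over all genes. Saa3 (chr7:46711998-46715700) stood at 1105 CPM (1059 to 1153) against 60.2 and 36.1, a log2 difference of 4.38. It was found in 27.0% of the cells and 9.33% of the Ms4a1 barcodes. Few cells held most of it: the 34 of 337 cells with the most Saa3 had 95.6% of its UMIs, and 1 cell had 517 of 2139. It was higher within a C1q class too, with 1371 CPM at 30 to 60 C1q UMIs per 10000 against 73.5 and 3.10. S100a8 and S100a9, which neutrophils hold in bulk, were 900.5 and 1261 CPM against at most 63.4 and 84.1 in SPF colon. S100a8 was found in 22.6% of the cells and in 18.7% of the Ms4a1 barcodes, and 5 neutrophil markers summed to 2750 CPM in the cells and 5066 CPM in the other barcodes of this library, so that share is close to its background. Other genes that neutrophils express were among the 10 largest differences: lipocalin 2 (Lcn2) stood at 53.7 CPM, Il1f9 at 66.1 and Retnlg at 386, against at most 2.35, 5.17 and 74.7 in SPF colon. Wfdc21 stood at 54.8 CPM and had 0 UMIs in both SPF libraries. The part of neutrophil RNA in the other differences was not tested.

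Of 14 monocyte genes measured, 7 were higher and 1 lower (median log2 difference 1.00). Plac8 was 1203 CPM against 564 and 52.5, haptoglobin (Hp) 123 against 17.4 and 5.83, and Chil3 127 against 22.1 and 7.00. Interferon-stimulated genes were higher in 6 of 16 and lower in 0. Irf7 was 325 CPM against 158 and 100.3, and Ifitm3 1108 against 621 and 295. Iigp1, a GTPase induced by interferon, was 93.5 CPM against 18.3 and 1.17. Cxcl9 was 1029 CPM (log2 difference 1.58), the only one of 15 chemokines counted as higher, while Cxcl1 was lower (241 against 555 and 2700.3). The Fc receptors Fcgr1 and Fcgr4 were 225 and 516 CPM, log2 differences of 1.16 and 1.33. Of the genes named here, Fcgr1 and Chil3 turned direction (to -0.13 and -2.10) once cells with 3 UMIs of another class were left out. The adaptor Myd88 was 186 against 75.7 and 51.3. Cd300lf, a lipid receptor on myeloid cells, was 196 against 61.1 and 15.2 CPM.

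Lower after DSS were Il10, which restrains macrophages (242 CPM against 607 and 2594), Mmp12 (96.1 against 149 and 476), and the lectin Mgl2 (7.23 against 59.2 and 150.4). Mmp13 was also lower, but the size of its log2 difference (-2.91) rested on SPF library 2, without which it was -0.33. Retnla, a resistin-like protein of alternative activation, had 0 UMIs in both DSS libraries and 65.3 and 525 CPM in SPF colon. At 3 counts the limit of detection was 1.55 CPM in the DSS library, so the lower SPF library was at least 42.1-fold higher. Among 15 resident identity genes 3 were lower and 1, Fcgr1, higher: Cd81 was 124 CPM, Adgre1 139 and Mrc1 126. Growth factors were lower in 3 of 7 and higher in 0, with Pgf at 50.1 against 98.2 and 364 CPM and Hbegf at 50.6 against 127 and 141. The transcription factors Irf4 (17.6 against 42.3 and 95.6) and Ahr, a sensor of dietary and bacterial indoles (89.9 against 157 and 244), were also lower. Apoe had a log2 difference of -0.90, under 2-fold. Within cells at 30 to 60 C1q UMIs per 10000 it was 2335 CPM after DSS and 4131 and 2705 in SPF colon, and at 60 to 120 6807 against 9542 and 10626. The median C1q level of the DSS cells was 55.1 UMIs per 10000, against 66.0 and 83.5 in SPF colon. MHC class II genes were lower in 1 of 10 and higher in 0, with a median log2 difference of -0.52 against 0.14 over all genes. Of 19 lysosomal and 15 NF-kB feedback genes 0 were counted. With 6.22% counted over all genes, counts of 0 in lists this short do not show them unchanged.

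In the library labelled Nlrc4 deficient, also treated with DSS, 169 of 3097 genes (5.46%) were higher and 235 (7.59%) lower than in SPF colon, 13.0% together. This library differed from SPF colon in DSS treatment as well as in the genotype label. Treatment, genotype and library cannot be told apart in these values. The inflammatory mediators were higher in 11 of 15 and lower in 0 (median log2 difference 1.95): Saa3 stood at 1537 CPM, Slpi at 1071, the activin subunit Inhba at 389 against 31.02 and 11.7, and Nos2, the inducible nitric oxide synthase, at 53.5 against 0.47 and 1.17. Resident identity genes were lower in 8 of 15 and higher in 0, with Cx3cr1 (log2 difference -3.20), Cd81 (-2.21), Mrc1 (-2.07), Maf (-1.56) and Apoe (-1.34) among them. Lysosomal genes were lower in 5 of 19, with Lgmn at 872 CPM against 2546 and 2379 and prosaposin (Psap) at 2072 against 5599 and 5801. Among receptors for dying cells, Axl was 112 CPM against 355 and 270.5 and Stab1 25.7 against 129.7 and 126. Glycolysis genes were higher in 5 of 13, with Gapdh at 1572 CPM against 688 and 754 and Eno1 at 259.7. The heme-degrading enzyme Hmox1 was 1357 CPM and ferritin heavy chain (Fth1) 25846, log2 differences of 1.68 and 1.03. The monocyte genes Plac8 and F10 were 1574 and 289 CPM (log2 differences 2.33 and 2.86), Ccl5 was 1943 (2.47), and the lectin Clec4e, a sensor of damage and mycobacteria, 1413 (1.95). Among the 10 largest differences downward were also the toll-like receptor Tlr12 (15.8 CPM against 101 and 143), the cyclooxygenase Ptgs1 (24.5 against 135 and 185) and Cd4 (7.78 against 24.9 and 107). Upward they included the connective tissue genes Mgp (53.3 CPM) and Dcn (94.3), and 5 fibroblast markers summed to 204 CPM here, the most of the 9 libraries. Without cells that held 3 UMIs of another class the log2 difference of Dcn turned to -0.49. Immediate-early and heat shock genes were lower in 9 of 20.

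Set directly beside the wild-type DSS library, the library labelled Nlrc4 deficient was higher in 171 of 3302 genes (5.18%) and lower in 371 (11.2%), 16.4% together. Genotype and library cannot be told apart here either. It held more Il1a (685 against 38.7 CPM), more of the neutrophil attractants Cxcl1 (2398 against 241) and Cxcl2 (18509.6 against 4464), more Spp1, which encodes osteopontin (299.6 against 15.5), more Il1b (8716 against 3603) and more Il10 (1119 against 242). It held less Ccr2 (155 against 598 CPM) and Lgmn (872 against 2869.8). Inflammatory mediators were higher in 10 of 18 and lower in 2, the 2 being S100a8 (16.7 CPM) and S100a9 (14.6), where neutrophil markers summed to 94.3 CPM in the cells and 3425 CPM in the other barcodes. Immediate-early and heat shock genes, which move with handling of the tissue, were lower in 12 of 20 and higher in 0, with Fos at 339.7 against 1384 CPM and Egr1 at 128 against 526. The median cell of this library held 10418 UMIs and that of the DSS library 4792. Their part in the differences was not tested. Nlrp3, which encodes an inflammasome sensor, was 1101 CPM here and 645 in the DSS library, the lowest of the 9, and between 738 and 1254 CPM in the other 7.

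Antibiotics deplete gut bacteria in grown mice, and in the cells of that library 43 of 3150 genes (1.37%) were higher than in SPF colon and 18 (0.571%) lower, 1.94% together. Against SPF library 1 alone 188 genes differed and against library 2 alone 123. The SPF libraries differed from each other in 218 of 3174 genes (6.87%). Treatment and library cannot be told apart in these values. The antibiotics library held 96 cells and 458468 UMIs, the shallowest sum. Intervals were therefore wide and smaller differences were not detectable at this depth. Receptors and ligands for dying cells were higher in 3 of 10 measured genes, Cd36 (183 CPM against 48.9 and 71.1), Gas6 (56.7 against 17.9 and 22.2) and Stab1 (262 against 129.7 and 126). Among 15 chemokines 4 were higher, among them Ccl7 (888 against 154 and 317), Ccl2 (811 against 274 and 238) and Cxcl10 (1307 against 470.4 and 528), and Cxcl9 was lower (78.5 CPM). Interferon-stimulated genes went in both directions, with 3 of 16 higher and 2 lower. Higher were Rsad2 (1195 against 165 and 586 CPM), Ifit1 (325 against 42.3 and 132) and Ifit3 (65.4 against 33.8 and 18.7). Irf7 was among the lower, at 28.4 against 158 and 100.3 CPM. Fibronectin (Fn1) was 382 CPM against 61.6 and 80.5, Retnla 1322 against 65.3 and 525, Il6 172 against 19.7 and 96.8, and the angiogenic factor Vegfa 28.4 against 156 and 145. The genes with the largest differences also included Iglc1 (733 CPM against 51.7 and 43.1), an immunoglobulin chain of B and plasma cells, and the goblet cell genes Agr2 (61.1 CPM) and Spink4 (105 CPM). Downward they included Ly6i (8.72 CPM against 134 and 43.1) and the lactate transporter Slc16a3 (6.54 against 64.9 and 49.0). B cell markers summed to 174 CPM in these cells, the highest of the 9 libraries, and their part was not tested. With cells holding 3 UMIs of another class left out, plasma cells included, Ccl7, Rsad2, Ifit3, Fn1, Vegfa, Iglc1 and Agr2 turned direction. With the plasma list kept out of that filter only Agr2 did. Resident identity genes (0 of 15), MHC class II (0 of 11) and lysosomal genes (0 of 19) held no gene counted as higher or lower. With 1.94% counted over all genes, counts of 0 in lists this short do not show them unchanged.

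**Figure D5:**
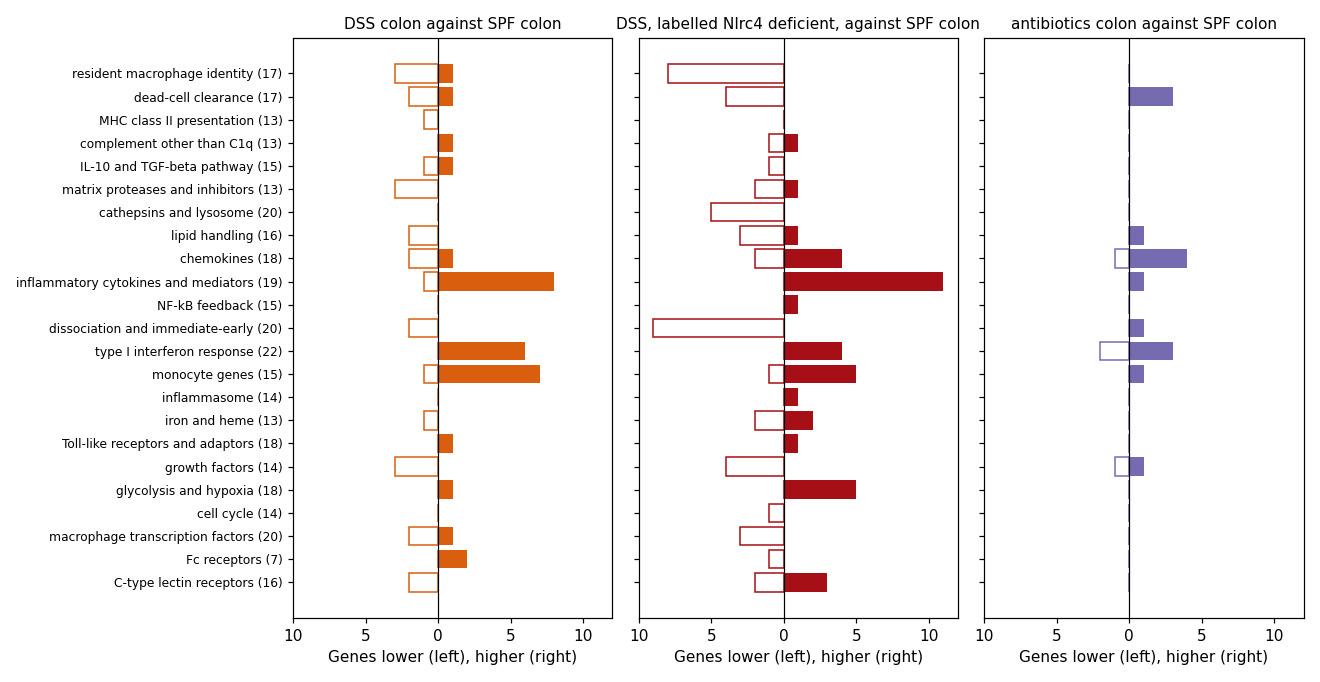
Number of genes of each fixed list (list size in brackets) counted as higher (filled bars) or lower (open bars) than SPF colon in the DSS, DSS with Nlrc4 label and antibiotics libraries, by a fold of 2 with Poisson intervals clear of both SPF libraries. Inflammatory mediators hold 8 and 11 higher genes in the DSS libraries and 1 after antibiotics, and resident identity genes hold 3, 8 and 0 lower ones.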

How the data were processed

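Per the labels and the file headers, the authors made the libraries from CD11b+ cells with the 10x 3' V3 kit and counted with Cell Ranger 3.0.2 and STAR 2.5.1b on mm10. The deposited matrices hold raw UMI counts per gene and barcode (37123 barcodes, 13243317 to 64453601 UMIs a library). The members and gene lists were chosen with earlier results of these data known. Counts of the cells were summed per library (458468 to 4242551 UMIs). edgeR 4.0.16 (quasi-likelihood test, TMM, filterByExpr, Benjamini-Hochberg adjustment) was fitted to the 6 libraries of SPF colon, GF colon and small intestine, whose comparisons share the SPF libraries, and was tested on simulated data. DESeq2 1.42.0 was an alternative, as were other filters on cells and genes, C1q limits, thinning to 2000 UMIs, pseudocounts, a replicate block and leaving out each library. Single libraries were compared by CPM with 5 CPM added and exact Poisson intervals. Genes were named as markers, as the up to 4 genes of each fixed list with the smallest p or largest ratio, or as the 10 largest ratios at 50 CPM or more, with other list genes given for their role.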

Additional observations from a re-analysis of the deposited data

How the results depend on the processing

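The number of genes passing at an adjusted p of 0.05 for GF and small intestine against SPF colon, 0 and 0 by edgeR, was 5 and 46 by DESeq2, 96 and 277 with no filter on low counts, 8 and 6 with cells of 3 UMIs of another class left out, and 0 to 4 and 0 to 44 with 1 library left out. Replicate numbers did not pair the libraries (correlations of the deviations 0.14, 0.08 and -0.02). With the replicate number as a block the small intestine comparison gave 15 genes and the GF comparison 0. The filter on another class removed most cells through the plasma cell list (295 of 330 in SPF library 1) and all in small intestine library 1. The same filter without that list, added after seeing the data, gave 2 genes for small intestine. No genes were called by edgeR in either comparison under library totals without TMM, the stricter cell filters or Scrublet.

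The difference in share of cells was 1.96 points (GF) and -0.998 points (small intestine) under the other-class filter, and ran from -5.51 to 3.25 and from -3.31 to 5.44 with 1 library left out. Genes past the fold rule numbered 44 (DSS), 218 (library labelled Nlrc4 deficient) and 28 (antibiotics) under the other-class filter, against 205, 404 and 61. With 1 SPF library they numbered 107 to 553, 473 to 526 and 123 to 188. Against the DSS library the library labelled Nlrc4 deficient differed in 358 genes with 20 CPM added, against 542.

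Over the 48 pairs of a gene and a comparison tested for the text, 721 of 799 values kept their direction and side of the threshold. Another 60 passed it and 18 turned direction. Some genes were in both comparisons. In single libraries 450 of 988 values moved by less than their counting interval, 524 moved by more and 14 turned direction. Log2 differences that turned for GF were Mmp13 (0.50 under the other-class filter, -1.38 to 2.18 with 1 library left out), Ms4a7 (0.0021 under the stricter cell filter, 0.021 with no programme UMI, 0.13 and 0.037 under the other-class filter with and without plasma, -0.47 to 0.63 with 1 library left out) and Ly6c2 (-5.54 to 0.23 with 1 library left out). For small intestine they were Apoe (-0.18 at the C1q limit of 60, -1.09 under the other-class filter), Mmp13 (0.45) and Il10 (0.68) under that filter, and with 1 library left out Apoe ran from -0.034 to 0.25, Mmp13 from -1.55 to 2.01, Il10 from -1.47 to 0.70, Ms4a7 from -0.88 to 0.22 and Ccl24 from -0.064 to 4.26. Under the other-class filter the single libraries gave Chil3 -2.10 and Fcgr1 -0.13 (DSS), Dcn -0.49 (Nlrc4 label), Ccl7 -0.043, Rsad2 -2.43, Ifit3 -2.45, Vegfa 1.04, Fn1 -1.08, Hspa1b -0.39, Iglc1 -0.036 and Agr2 -1.32 (antibiotics), and Timp1 -1.92 (Nlrc4 label against DSS). Agr2 was also -0.97 at the C1q limit of 60 and -1.22 without the plasma list. The cause of these shifts was not tested.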
